A study of Rattus norvegicus with 16 samples.

Results

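The 8 genes described here encode enzymes of glycolysis and gluconeogenesis, measured in the liver of weanling rats. They were chosen by name, with earlier results of these data known. A probe was a member where its RefSeq accession maps to Pklr, Pfkl, Pfkfb1, Gapdh, Pgk1, Pck1, Fbp1 or G6pc1. This gave 12 probes for the 8 genes, out of 12072 genes or identifiers tested. Gapdh had 3 probes, G6pc1 and Pfkl had 2 each, and the other genes had 1. All 8 genes passed the filter on dim probes, and the liver signal of each of the 12 probes was well above background on all 16 arrays.

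Glycolysis breaks glucose down to pyruvate, and gluconeogenesis builds glucose from lactate, glycerol and amino acids. Most of the enzymes serve both directions, and the liver sets the direction at a few irreversible steps that have separate enzymes for each way. Insulin and glucose raise transcription of the glycolytic pyruvate kinase, while glucagon, through cyclic AMP, raises transcription of the gluconeogenic Pck1 and G6pc1 in fasting. Around weaning the diet of a rat shifts from milk fat to carbohydrate.

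The arrays compared 4 groups of male Sprague-Dawley pups aged 21 days, each with 4 arrays. Group M stayed with its own dams, which received 1 mg per kg per day of a mixture throughout gestation and lactation, made up of methylmercury, polychlorinated biphenyls and organochlorine pesticides. Group C stayed with its own dams, which received the corn oil vehicle. Group MM was cross-fostered, with the mixture given both to the biological and to the nursing dams, and group CC was cross-fostered between control dams. Each array held a pool of liver RNA from 2 pups in the Cy5 channel and a universal rat reference RNA from 14 cell lines in the Cy3 channel. The litters were not given, so pups of 1 litter may be in several pools, and p-values measure the spread between pools. In whole liver RNA, fewer cells of a type and less RNA per cell cannot be told apart. The comparison of M with C and that of MM with CC ask what the mixture changed; those of MM with M and of CC with C ask what cross-fostering changed.

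Slide 2 carried the M and MM arrays and slide 1 the CC and C arrays, so mixture and slide cannot be told apart. The reference channel, which by design holds no pup RNA, also differed between the slides. In Cy3 alone 66% of all genes were called different between M and C and 66.4% between MM and CC. The Cy3 difference therefore stands beside the mixture differences of each enzyme. It is not a clean measure of the slide difference for every probe, because the Cy3 level of G6pc1, given below, moved with its liver level. Nor does it measure a slide difference in Cy5. Each slide had 2 rows of arrays with 2 arrays per group in each. Hepatocyte markers were present on all arrays, with 8 of 8 above background and a summed Cy5 intensity between 731000 and 818000. Array CC 1 stood apart: the 100 probes with the highest liver over reference ratio had a Cy3 level 0.56 above their median over all arrays on the log2 scale, against -0.19 to 0.16 on the other 15 arrays. Skeletal muscle markers summed to 19400 on CC 1 and 16900 on CC 2, with 11 of 12 above background on both, against 1040 to 1180 and 2 to 4 above background on the other arrays. Exocrine pancreas markers summed to 4410 on CC 1, 12300 on CC 2, 3320 on MM 1 and 1670 on M 6, against 492 to 802 on the others. Erythroid marker sums overlapped between the groups, at 72300 to 98100 in M, 76100 to 111000 in MM, 79700 to 109000 in CC and 66300 to 104000 in C. Kidney tubule markers, from another gluconeogenic tissue, had at most 2 of 3 above background on any array.

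The start regions of Pklr, Pck1 and G6pc1 are shown because these are the members whose transcription is the textbook case of control by diet and hormones, and because the results below turn on them. The sequences are from RefSeq on build GRCr8, on the plus strand, from 250 bases before to 50 after the gene's start. Capitals mark the motif matches found, which are described after the sequences.
Pklr, chr2:176841014-176841313: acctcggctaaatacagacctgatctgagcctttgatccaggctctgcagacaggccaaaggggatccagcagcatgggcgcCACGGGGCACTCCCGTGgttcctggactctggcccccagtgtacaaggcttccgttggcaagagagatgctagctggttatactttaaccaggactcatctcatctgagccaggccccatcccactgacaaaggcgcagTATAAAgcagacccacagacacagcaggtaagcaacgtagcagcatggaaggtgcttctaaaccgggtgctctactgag
Pck1, chr3:182348322-182348621: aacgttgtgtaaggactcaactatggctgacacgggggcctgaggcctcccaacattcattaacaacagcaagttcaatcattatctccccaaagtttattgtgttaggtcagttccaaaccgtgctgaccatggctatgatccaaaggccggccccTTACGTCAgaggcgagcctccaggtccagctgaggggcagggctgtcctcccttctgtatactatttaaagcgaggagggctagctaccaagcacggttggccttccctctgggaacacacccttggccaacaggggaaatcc
G6pc1, chr10:86807409-86807708: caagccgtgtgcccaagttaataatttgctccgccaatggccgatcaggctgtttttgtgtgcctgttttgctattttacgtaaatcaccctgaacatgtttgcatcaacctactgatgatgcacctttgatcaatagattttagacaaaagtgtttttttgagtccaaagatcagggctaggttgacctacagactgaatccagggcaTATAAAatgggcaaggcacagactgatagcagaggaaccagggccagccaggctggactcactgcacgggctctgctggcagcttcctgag

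The 4 motifs below were searched on both strands in the 7 members with a RefSeq start region in the table used. Pgk1 was not in it. A carbohydrate response element, spelled CANGNG and CNCNTG with 5 bases between them, which is a spaced pair of E-boxes of the kind bound by the glucose sensor ChREBP with its partner Mlx, occurred in Pklr with its first base at -168. Among all 33469 start regions of the same length 0.562% held it. Pck1 held the cAMP response element TNACGTCA at -93, which 3.25% of start regions held. The TATA box TATAAA occurred in Pklr at -29, in Gapdh at -26 and in G6pc1 at -41, and in 14.2% of all. The aryl hydrocarbon receptor core GCGTG occurred in Pfkl and Gapdh with 2 matches each and in Fbp1 with 1, that is in 3 of 7 members, and in 29.7% of all. It was not matched in the windows of Pklr, Pck1 and G6pc1. A match to letters is a description of the sequence and not a measured binding site.

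Values below are log2 ratios of liver Cy5 over reference Cy3 unless a channel is named. Differences come from a limma fit to all 16 arrays, with standard errors (SE) from that fit and p-values adjusted by Benjamini-Hochberg over the 12072 genes. The call threshold was an adjusted p of 0.05.

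Between M and C, 2 of the 8 enzymes were called, both lower in M, where 20.4% of all genes were called. The called enzymes were Pklr and Pfkl, and only Pklr kept its direction in the liver channel. Both calls were also made in Cy5 alone, where 2.26% of all genes were called, but 1 of them, Pfkl, was opposite in sign there. The same direction was called in both measurements for 1 of 8 enzymes and for 1.26% of all genes between M and C. The median difference over the 8 enzymes was -0.20, and that over all genes was -0.051. The ratios of 3 enzymes, Pklr, Pfkl and Fbp1, did not overlap between the 4 M and the 4 C arrays, as was so for 25.1% of all genes. Between MM and CC no enzyme was called by limma, where 20% of all genes were called. At an unadjusted p below 0.05 there were 3 of 8 enzymes between MM and CC, Pklr, Pfkl and Gapdh, and 33.6% of all genes. In Cy5 alone 1 enzyme, Pfkl, was called between MM and CC, beside 2.62% of all genes. Calls in the same direction in both measurements were made for 0 of 8 enzymes between MM and CC and for 1.28% of all genes. No enzyme was free of overlap between MM and CC, against 21.9% of all genes. In Cy3 alone, 2 of 8 enzymes were called between M and C (Pfkl and Pck1), beside 66% of all genes. Between MM and CC it was 4 of 8 (Pfkl, Pck1, Pfkfb1 and Pgk1), beside 66.4% of all genes.

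**Figure D1:**
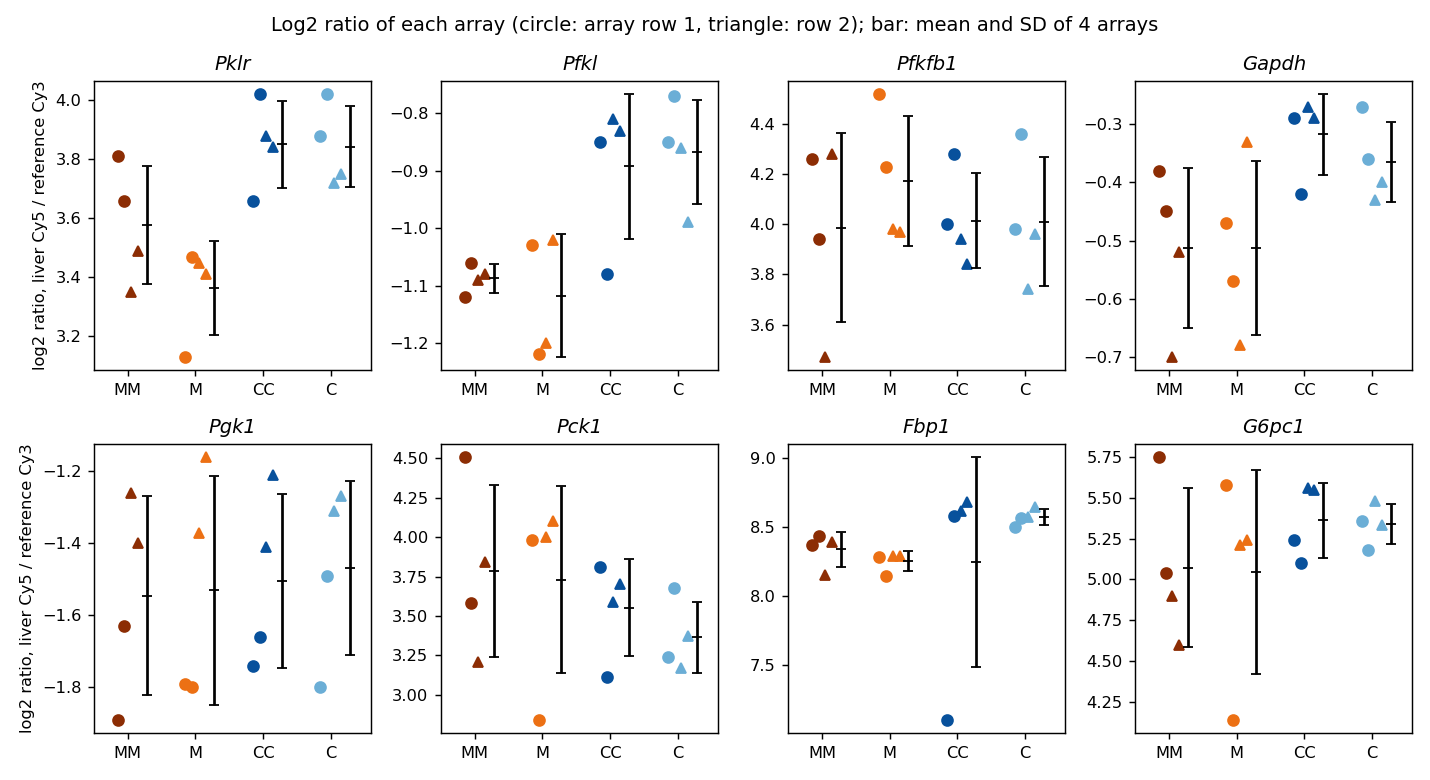
Log2 ratio of liver Cy5 over reference Cy3 for each of the 8 enzymes (y axis, own scale per panel) on every array of MM, M, CC and C (x axis), as circles for array row 1 and triangles for row 2, with the mean and SD of 4 arrays beside them. Pklr lay between 3.13 and 3.47 in M, below all 4 C arrays, and Fbp1 on CC array 1 stood at 7.10, far below the other CC arrays.

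Pklr encodes liver-type pyruvate kinase, which catalyses the last and irreversible step of glycolysis, and from another promoter the red-cell enzyme. Its ratio was 3.13, 3.47, 3.45 and 3.41 on the M arrays, against 3.88, 4.02, 3.72 and 3.75 on the C arrays. All M arrays lay below all C arrays. The fitted difference was -0.48 ± 0.11 (SE, n = 4 arrays per group, limma adjusted p = 0.00649), so that M was at 0.718 times the level in C. The liver channel alone gave -0.47 (limma adjusted p = 0.00325), with a 95% interval from -0.63 to -0.31. The reference channel differed by -0.01, with an interval from -0.16 to 0.13. Pklr is thus a gene whose liver signal and ratio differed by nearly the same amount, while its dim reference signal differed little between slides. Its mean Cy3 level was 7.14 in M and 7.16 in C on the log2 scale, lower than for the brightest probe of any other enzyme. The offset of 50 added to the signals shrinks differences in so dim a signal. The Cy3 value is therefore a weak check on a slide difference in Pklr, and such a difference was not tested further. Within array row 1 the Pklr ratio differed by -0.65 between M and C and within row 2 by -0.31. Neither was called on 2 arrays per group (limma adjusted p = 0.0507 and 0.0846). The erythroid marker sums given above overlapped between M and C. The 5 erythroid genes tested had a median difference of -0.22 between M and C, with none called, against -0.051 over all genes. Between MM and CC their median was -0.14, also with none called, against -0.058 over all genes. The part of red cells in the Pklr difference was not tested.

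In cross-fostered pups Pklr had ratios of 3.81, 3.66, 3.35 and 3.49 on the MM arrays, against 3.66, 4.02, 3.88 and 3.84 on the CC arrays. MM arrays 1 and 2 lay within the CC range, whose lowest array was CC 1. The Pklr Cy3 level on CC 1 was 7.44, against 7.05 to 7.26 on all other arrays. Without CC 1 the MM and CC ratios did not overlap, and they differed by -0.34 (limma adjusted p = 0.0533). The Cy5 levels did not overlap either, at 9.05 to 9.32 in MM and 9.39 to 9.46 in CC. With all arrays the difference was -0.27 ± 0.11 and was not called (unadjusted p = 0.0255, limma adjusted p = 0.0943), with an interval from -0.51 to -0.04. In Cy5 alone it was -0.28 (limma adjusted p = 0.0773) and in Cy3 alone -0.08. Its size varied with the setting: it was -0.10 within row 1, -0.44 within row 2 and -0.08 with the scanner software's ratio (limma adjusted p = 0.73, 0.0255 and 0.642). The M against C and MM against CC differences of Pklr were set against each other in the interaction, which was 0.20 with an interval from -0.13 to 0.54 (unadjusted p = 0.21, limma adjusted p = 1). The group means were 3.58 ± 0.20 in MM, 3.36 ± 0.16 in M, 3.85 ± 0.15 in CC and 3.84 ± 0.14 in C (SD, n = 4 arrays each), which ranks M lowest, then MM, then C and CC. Neither CC and C nor MM and M differed beyond the spread between arrays.

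Pfkl encodes the liver subunit of phosphofructokinase, which commits fructose 6-phosphate to glycolysis. Its ratio was -1.03, -1.22, -1.20 and -1.02 on the M arrays, against -0.85, -0.77, -0.86 and -0.99 on the C arrays. The groups did not overlap, but the nearest arrays were close, at -1.02 in M and -0.99 in C. The difference was -0.25 ± 0.076 (n = 4 arrays per group, limma adjusted p = 0.0293). The liver channel went the other way: the Cy5 level was 8.33, 8.04, 8.15 and 8.28 on the M arrays, against 7.85, 7.78, 7.72 and 7.70 on the C arrays, a difference of 0.44 (limma adjusted p = 0.00415). The reference channel was higher by 0.63 on the M arrays (limma adjusted p = 1.63e-09). Pfkl was therefore lower in M in the ratio and higher in M in Cy5, and the larger Cy3 difference, in RNA that no pup contributed, separates these values. No direction for the liver was read from them.

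The same pattern held for Pfkl between MM and CC, on other arrays of the same slides. The MM ratios were -1.12, -1.06, -1.09 and -1.08, against -0.85, -1.08, -0.81 and -0.83 in CC. The difference was -0.19 (limma adjusted p = 0.0841), with 0.56 in Cy5 alone (limma adjusted p = 0.000706) and 0.71 in Cy3 alone (limma adjusted p = 4.38e-10). The second Pfkl probe gave -0.26 between M and C and -0.28 between MM and CC without a call, and 0.34 and 0.32 in Cy5 alone, so both probes had the ratio and the liver channel at opposite signs.

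**Figure D2:**
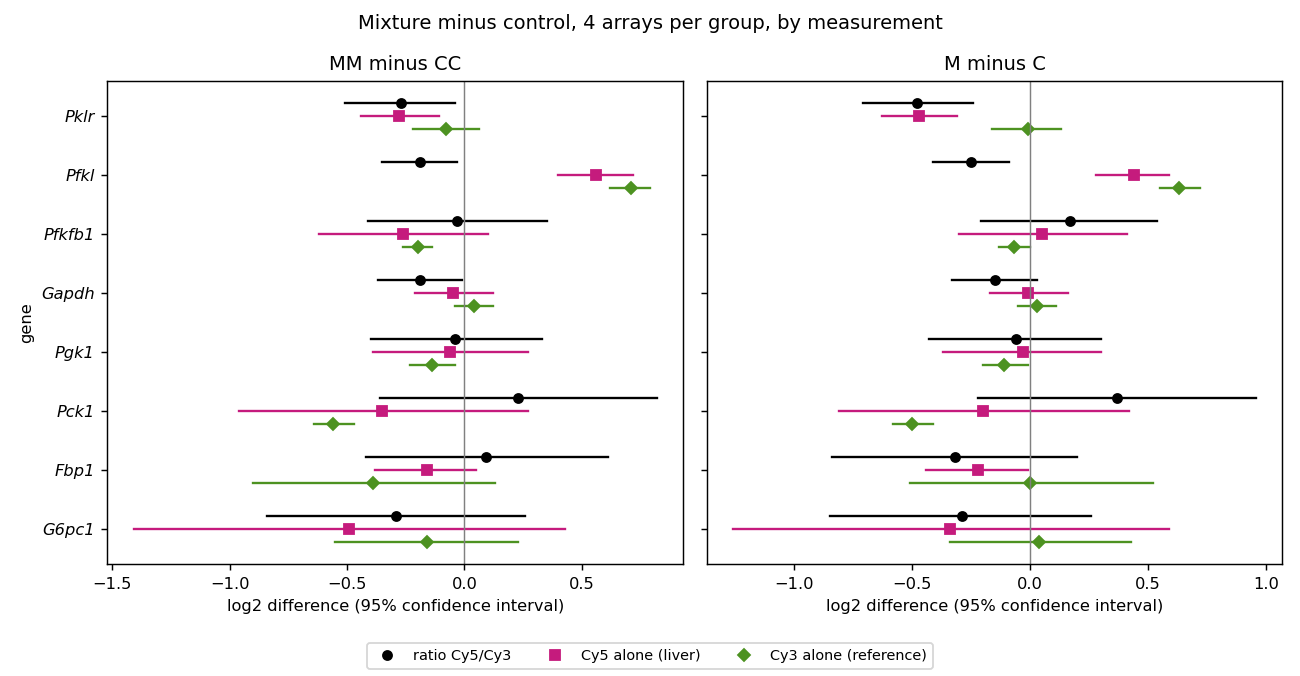
Log2 difference (x axis) with its 95% confidence interval for each enzyme (rows), MM minus CC on the left and M minus C on the right, in the ratio (circles), in liver Cy5 alone (squares) and in reference Cy3 alone (diamonds). Pklr lay below 0 in the ratio and in Cy5 with Cy3 near 0, while Pfkl lay below 0 in the ratio and above 0 in both channels, at 0.44 in Cy5 and 0.63 in Cy3 for M minus C.

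Pfkfb1 encodes the liver form of the bifunctional enzyme that makes and removes fructose 2,6-bisphosphate, the signal that speeds glycolysis and slows gluconeogenesis. Its ratio was 4.52, 4.23, 3.98 and 3.97 in M, against 3.98, 4.36, 3.74 and 3.96 in C. In cross-fostered pups it was 4.26, 3.94, 3.47 and 4.28 in MM, against 4.0, 4.28, 3.94 and 3.84 in CC. The groups overlapped in both comparisons, with differences of 0.17 between M and C and -0.03 between MM and CC (limma adjusted p = 0.555 and 0.926). In Cy3 alone Pfkfb1 differed by -0.07 and -0.20, of which that between MM and CC was called (limma adjusted p = 0.058 and 1.82e-05). Row 1 arrays exceeded row 2 arrays of Pfkfb1 by 0.28 on slide 1 and by 0.31 on slide 2, which is larger than either mixture difference.

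Gapdh, glyceraldehyde 3-phosphate dehydrogenase, and Pgk1, phosphoglycerate kinase, catalyse consecutive reversible steps shared by both pathways. Gapdh is often used as a constant standard. The brightest Gapdh probe had ratios of -0.47, -0.57, -0.68 and -0.33 in M, against -0.27, -0.36, -0.43 and -0.40 in C. It was -0.38, -0.45, -0.70 and -0.52 in MM, against -0.29, -0.42, -0.27 and -0.29 in CC. The array groups overlapped in both comparisons, and the differences were -0.15 between M and C (limma adjusted p = 0.239) and -0.19 between MM and CC (unadjusted p = 0.0364, limma adjusted p = 0.119). In Cy5 alone they were -0.01 and -0.05, and in Cy3 alone 0.03 and 0.04. The other Gapdh probes did not follow the brightest one: they gave 0.02 and 0.17 between M and C, and 0.00 and -0.07 between MM and CC.

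Pgk1 differed by -0.06 between M and C, with an interval from -0.43 to 0.30, and by -0.04 between MM and CC, from -0.40 to 0.33. In Cy3 alone it differed by -0.11 and -0.14, of which that between MM and CC was called (limma adjusted p = 0.0502 and 0.0128). Its ratios ran from -1.80 to -1.16 in M, against -1.80 to -1.27 in C, and from -1.89 to -1.26 in MM, against -1.74 to -1.21 in CC. The spread of Pgk1 within groups went with the array row: row 1 minus row 2 was -0.37 on slide 1 and -0.48 on slide 2. All 4 groups had their 2 row 1 arrays below their 2 row 2 arrays for this gene. Pfkfb1 and Pgk1 thus had row differences of opposite sign, on both slides, and their cause was not tested.

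On the gluconeogenic side, Pck1 encodes the cytosolic phosphoenolpyruvate carboxykinase, the first committed step from oxaloacetate. Its ratio was 3.98, 2.84, 4.0 and 4.10 on the M arrays, against 3.24, 3.68, 3.17 and 3.37 on the C arrays. Arrays 5, 7 and 8 of M lay above all C arrays and M array 6 lay below all of them. The difference was 0.37 ± 0.28 and was not called (n = 4 arrays per group, limma adjusted p = 0.384), with an interval from -0.22 to 0.96. The sign was the opposite in the liver channel, at -0.20, while Cy3 differed by -0.50 (limma adjusted p = 2.54e-08). Within array row 1 the ratio differed by -0.05 and within row 2 by 0.78 (limma adjusted p = 0.0537), the row 1 value including M array 6. Without M array 6 the difference over both rows was 0.66 (limma adjusted p = 0.0696).

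Between MM and CC, Pck1 ratios were 4.51, 3.58, 3.21 and 3.84 on the MM arrays, against 3.81, 3.11, 3.59 and 3.70 on the CC arrays. MM arrays 1 and 4 lay above all CC arrays, CC array 2 lay below all MM arrays, and the other arrays overlapped. The difference was 0.23 in the ratio, -0.35 in Cy5 alone and -0.56 in Cy3 alone (limma adjusted p = 0.605, 0.638 and 6.53e-09). Without MM array 1 the ratio differed by -0.01. For Pck1, as for Pfkl, the sign of the mixture difference depends on whether the reference channel is used. The interval in Cy5 alone ran from -0.96 to 0.27 between MM and CC and from -0.81 to 0.42 between M and C, so each interval holds values of both signs.

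Fbp1 encodes fructose 1,6-bisphosphatase, which opposes phosphofructokinase. Its ratio was 8.28, 8.14, 8.29 and 8.29 on the M arrays, against 8.50, 8.56, 8.57 and 8.64 on the C arrays, with no overlap. The fit over all 16 arrays gave -0.32 ± 0.24 and no call (limma adjusted p = 0.389), because the spread it shares between groups included 1 CC array far from the others. A fit to only the M and C arrays gave the same difference with an SE of 0.072 (limma adjusted p = 0.0127), but in that fit Pfkl was not called (limma adjusted p = 0.0551). Leaving out CC array 1, an alternative chosen after seeing the data, gave -0.32 with an adjusted p of 0.00482 by limma, and then 3 of the 8 enzymes were called between M and C. In Cy5 alone the M and C arrays of Fbp1 overlapped and the difference was -0.22 (limma adjusted p = 0.3), with an interval from -0.44 to -0.01. In Cy3 alone it was 0.00, with a wide interval from -0.51 to 0.52.

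In cross-fostered pups the Fbp1 ratio was 8.37, 8.43, 8.15 and 8.39 on the MM arrays, against 7.10, 8.58, 8.61 and 8.68 on the CC arrays. The MM arrays lay below all CC arrays but CC array 1. On CC array 1 the liver level of Fbp1 in Cy5 lay within the 15.93 to 16.25 of the other CC arrays, but its reference level was 10.53 in Cy3, against 8.85 to 9.16 on the other 15 arrays. The low ratio thus went with a high reference signal and not with a low liver signal. The mean Cy3 level of the hepatocyte markers was likewise 10.67 on CC array 1 and 9.54 to 9.78 elsewhere. With CC array 1, Fbp1 differed by 0.09 between MM and CC (limma adjusted p = 0.827). Without it the difference was -0.29 (limma adjusted p = 0.0167), and without CC arrays 1 and 2, the arrays with muscle markers, it was -0.31 (limma adjusted p = 0.0395). In Cy5 alone, with all arrays, it was -0.16 (limma adjusted p = 0.489), and in Cy3 alone -0.39 (limma adjusted p = 0.169).

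**Figure D3:**
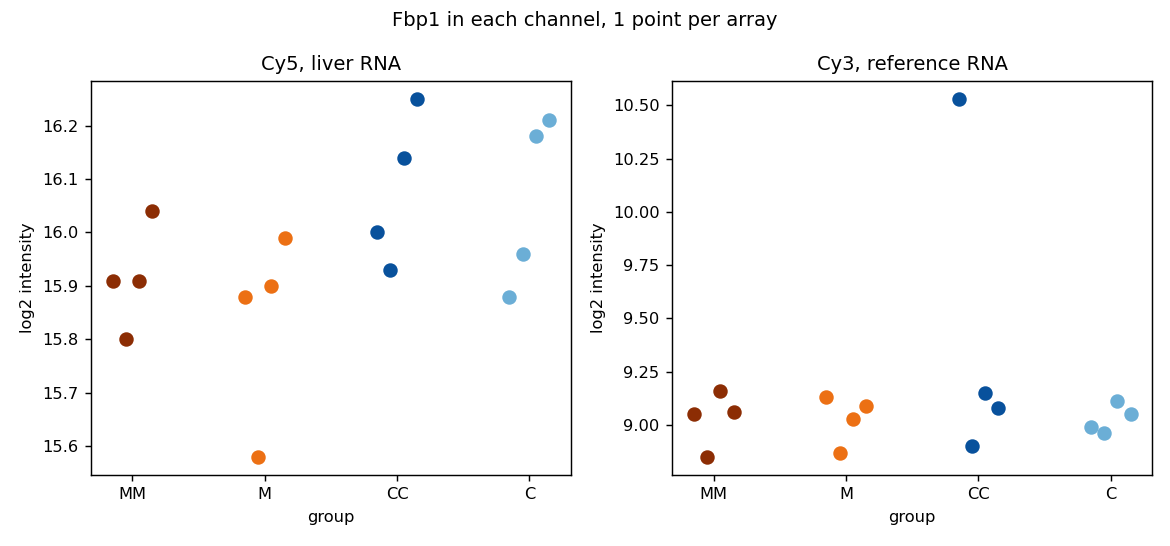
Fbp1 log2 intensity on each array (1 point per array) in liver Cy5 on the left and reference Cy3 on the right, for MM, M, CC and C. In Cy5 the CC arrays lay between 15.93 and 16.25, while in Cy3 CC array 1 stood at 10.53 and all other arrays between 8.85 and 9.16.

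G6pc1 encodes the catalytic subunit of glucose 6-phosphatase, which releases free glucose at the end of gluconeogenesis and glycogen breakdown. The brighter of its probes gave ratios of 5.58, 4.14, 5.21 and 5.24 in M, against 5.36, 5.18, 5.48 and 5.33 in C. In cross-fostered pups the ratios were 5.75, 5.04, 4.90 and 4.60 in MM, against 5.24, 5.10, 5.56 and 5.55 in CC. The array with the highest G6pc1 ratio, MM 1, and those with the lowest, M 6 and MM 4, all came from mixture groups. The differences were -0.29 ± 0.26 between M and C (limma adjusted p = 0.463) and -0.29 ± 0.26 between MM and CC (limma adjusted p = 0.471), and neither was called. Without M array 6 the M to C difference was 0.01 (limma adjusted p = 0.987). The MM to CC difference ran from -0.51 without MM array 1 to -0.13 without MM array 4. The second probe gave -0.37 and -0.67, also without a call.

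In Cy5 alone G6pc1 was 12.85, 10.59, 12.44 and 12.64 in M, against 12.48, 12.13, 12.78 and 12.48 in C. It was 13.20, 12.06, 11.91 and 11.30 in MM, against 12.90, 11.96, 12.81 and 12.77 in CC. The Cy5 intervals were wide, from -1.26 to 0.59 for M minus C and from -1.41 to 0.43 for MM minus CC. In Cy3 alone the differences were 0.04 and -0.16 (limma adjusted p = 0.846 and 0.451). The Cy3 level of this probe also moved with the liver level across arrays: M array 6 had the lowest of all in both channels, at 10.59 in Cy5 and 8.08 in Cy3. Within row 2 the MM to CC difference of G6pc1 was -0.81 (limma adjusted p = 0.0103), and within row 1 it was 0.23 (limma adjusted p = 0.775), with 2 arrays per group in each.

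The spread between arrays was wider in the mixture groups than in the control groups for G6pc1, Pck1 and the brightest Gapdh probe. The SD of the G6pc1 ratio was 0.62 in M and 0.49 in MM, against 0.23 in CC and 0.12 in C. The pooled mixture SD was 3.04 times the pooled control SD, and 1.75% of all genes had a ratio at or above this. For Pck1 the SDs were 0.60 in M and 0.55 in MM, against 0.31 in CC and 0.23 in C, a ratio of 2.12 that 8.66% of genes reached. Gapdh was close to Pck1 in this ratio, at 2.06, which 9.62% of genes reached, with SDs of 0.15 in M and 0.14 in MM, against 0.07 in CC and 0.07 in C. The other Gapdh probes had SDs of 0.30 and 0.21 in M, against 0.06 and 0.06 in C. In MM theirs were 0.11 and 0.11, below the 0.14 and 0.15 in CC. For the median gene the SDs were 0.14 in M, 0.15 in MM, 0.13 in CC and 0.12 in C, with a ratio of 1.15. Pfkfb1 had a ratio of 1.44, Pklr of 1.27 and Pgk1 of 1.24. Pfkl was below the median at 0.702, and so was Fbp1 at 0.19, with an SD of 0.76 in CC, the group of CC array 1. These ratios are descriptions on 4 arrays per group, and those of Pck1 and G6pc1 rest on few arrays: M array 6 had the lowest Pck1 and G6pc1 of all 16 arrays and MM array 1 the highest of both. Both arrays also had exocrine pancreas marker signal, with 5 of 7 markers above background. CC arrays 1 and 2 had larger sums of these markers, with 5 and 7 of 7 above background. Their Pck1 ratios were 3.81 and 3.11 and their G6pc1 ratios 5.24 and 5.10. The part of the pancreas signal in these values was not tested.

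Pck1 and G6pc1 varied together after the group means were removed, with Pearson r = 0.74 and Spearman rho = 0.60 over 16 arrays. The permutation p, with arrays exchanged within groups, was 0.0391 for r and 0.0462 for rho. Over the 28 pairs among the 8 enzymes the adjusted values were 0.365 and 0.316, so the relation did not pass the correction. Without M array 6 and MM array 1, the arrays farthest from the median of Pck1, r was 0.39. Leaving out the arrays most extreme in Pck1 narrows its range, which by itself lowers r. The lower r therefore cannot show how far the relation rests on those arrays. Within slide 2, which holds M and MM, r was 0.85, and within slide 1, which holds CC and C, it was 0.13; the difference between the slides was not tested. The other pair with an absolute r above 0.6 was Pfkfb1 with Pgk1, at -0.61 (permutation adjusted p = 0.365), the pair whose values differ between array rows in opposite directions.

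**Figure D4:**
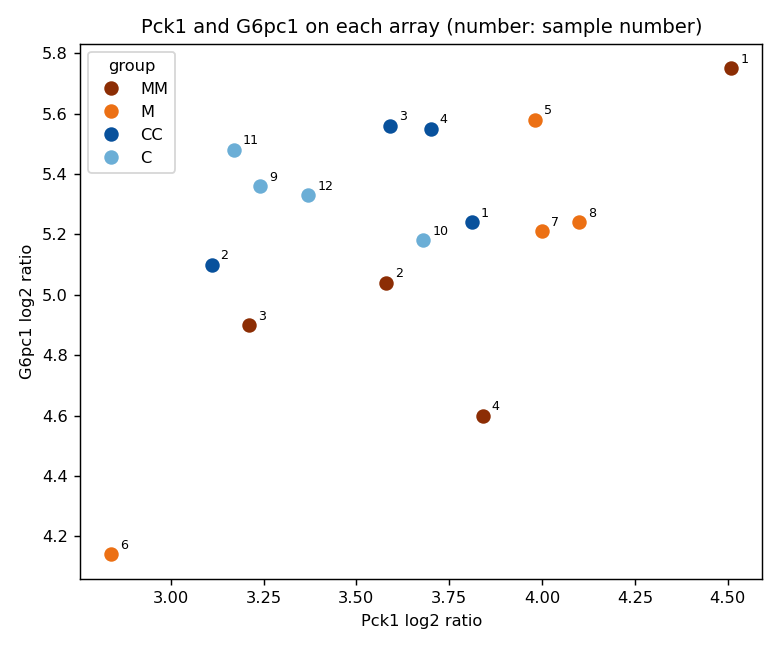
G6pc1 log2 ratio (y axis) against Pck1 log2 ratio (x axis), 1 point per array with its sample number, coloured by group. M array 6 lay at 2.84 for Pck1 and 4.14 for G6pc1 and MM array 1 at 4.51 and 5.75, the lowest and highest corners, while the other arrays showed a looser relation.

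Cross-fostering was compared within a slide, so these differences carry no slide shift. Between MM and M, and between CC and C, no enzyme was called by limma, where 0% of all genes were called in each comparison. No enzyme had an unadjusted p below 0.05 in either comparison, against 2.28% of all genes between MM and M and 2.78% between CC and C. In Cy5 alone there were also no calls. In Cy3 alone no enzyme was called either, where 0.00828% of all genes were called between MM and M. No enzyme was free of overlap between MM and M, against 1.28% of all genes, or between CC and C, against 2.2%. The largest differences were those of Pklr and Pfkfb1 between MM and M, at 0.21 with an interval from -0.02 to 0.45 and at -0.19 from -0.57 to 0.18, and of Fbp1 between CC and C, at -0.33 from -0.84 to 0.19. The Fbp1 value turned to 0.07 without CC arrays 1 and 2. For Pfkl the intervals lay within 0.2 of no change in both comparisons, from -0.13 to 0.19 between MM and M and from -0.18 to 0.14 between CC and C. For Pck1, Fbp1 and G6pc1 they reached beyond 0.5 in at least 1 direction in both comparisons. With 4 pools per group these intervals therefore still hold changes of that size.

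The interaction, which asks whether cross-fostering differed between mixture and control pups, was not called for any enzyme by limma, as for 0% of all genes. No enzyme reached an unadjusted p below 0.05 in it, against 2.89% of all genes. The estimates ran from -0.20 for Pfkfb1 to 0.41 for Fbp1, and the Fbp1 estimate was 0.01 without CC arrays 1 and 2. The SE of the interaction was 0.11 for Pfkl and 0.37 for G6pc1, so the enzymes differed in how closely it could be measured.

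**Figure D5:**
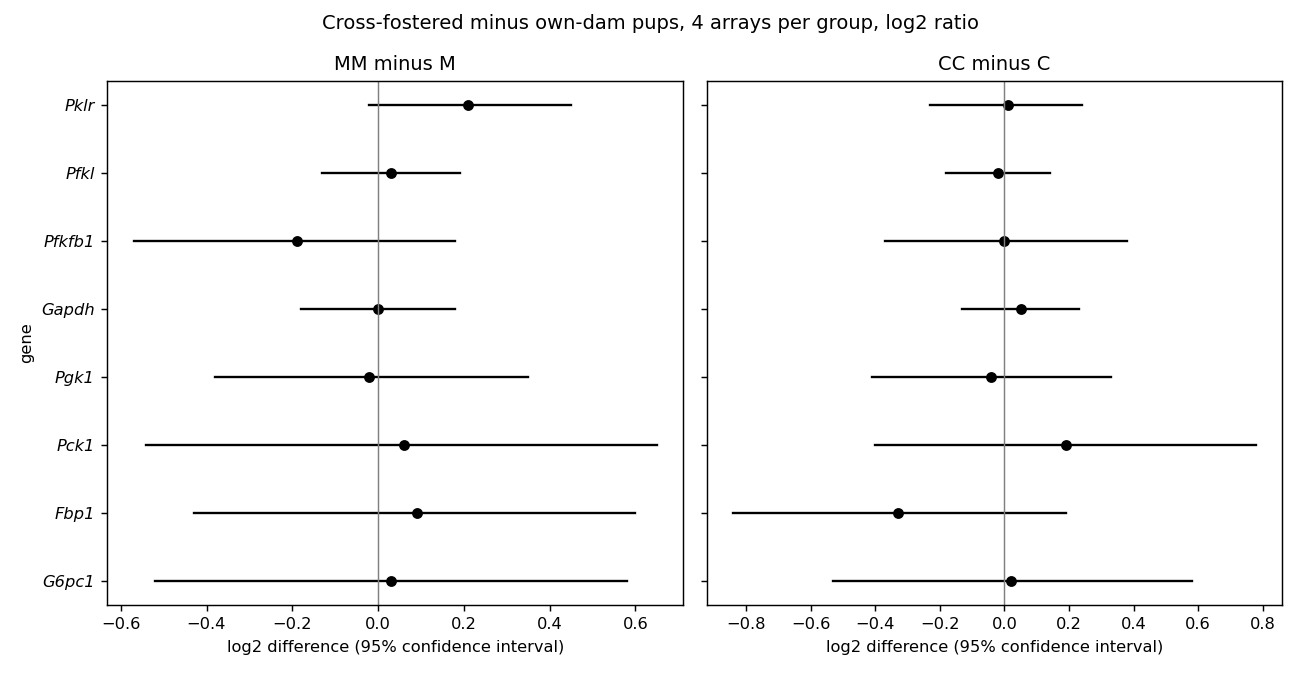
Log2 ratio difference (x axis) with its 95% confidence interval for each enzyme (rows), MM minus M on the left and CC minus C on the right, 4 arrays per group. All intervals include 0; those of Pfkl and Gapdh are narrow, and those of Pck1, Fbp1 and G6pc1 are the widest.

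The other genes of hepatic glucose handling were described from lists of 103 genes, of which 81 were tested. Between M and C, 10 of the 81 were called higher and 7 lower, that is 21%, with a median difference of 0.00; over all genes 20.4% were called. Between MM and CC, 3 were called higher and 3 lower, that is 7.41%, beside 20% of all genes. None of these calls was also made in Cy5 alone in the same direction, and none of the 81 genes was called between MM and M, between CC and C or in the interaction. The changes below are therefore calls in the ratio only. A missing call in Cy5 does not show that the liver signal was unchanged. Each gene named as higher or lower is given with its Cy3 difference.

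Of 18 other glycolytic genes, 1 was higher and none was lower in M, and 1 was higher and 1 lower in MM. Eno2, an enolase best known from neurons, was higher by 0.56 in M than in C (limma adjusted p = 0.0046) and by 0.75 in MM than in CC (limma adjusted p = 0.000611), with Cy3 differences of -0.49 and -0.48. Hk3, a hexokinase typical of leukocytes, was lower in MM at -0.44 (limma adjusted p = 0.0424), with Cy3 at 0.13, and was at -0.18 in M without a call. Of 9 Kupffer cell and leukocyte markers, 3 were also lower in MM (33.3%, median -0.26) and none was called in M. Their summed Cy5 intensity was 7620 to 9420 in MM, against 7430 to 12100 in CC, and their part in the Hk3 value was not tested. Ldha, a lactate dehydrogenase subunit, was at 0.18 in M and 0.04 in MM without a call. Pkm, the pyruvate kinase of most tissues other than liver, had a ratio difference of 0.35 and 0.15 without a call, but was called lower in Cy5 alone, at -0.48 in M and -0.68 in MM, with Cy3 at -0.85 and -0.83. Pkm was singled out after its values were seen.

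Of 9 other gluconeogenic genes, 3 were higher in M and 1 in MM, and none was lower. Pck2, the mitochondrial phosphoenolpyruvate carboxykinase, was higher by 0.48 in M (limma adjusted p = 0.00945), with 0.12 in Cy5 and -0.38 in Cy3. Mdh2, mitochondrial malate dehydrogenase, was higher by 0.30 (limma adjusted p = 0.0177) with -0.03 in Cy5 and -0.32 in Cy3. The dicarboxylate carrier Slc25a10 was higher by 0.28 (limma adjusted p = 0.0161), with Cy3 at -0.20. Got2, mitochondrial aspartate aminotransferase, was higher by 1.00 in MM (limma adjusted p = 0.00383), but its Cy5 difference was -0.09 and its Cy3 difference -1.06. For these 4 genes the ratio was higher where the reference signal was lower. Pc, pyruvate carboxylase, and Slc37a4, the glucose 6-phosphate transporter that works with G6pc1, were each at -0.14 in M without a call.

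Of 11 glycogen genes, 2 were higher and 1 lower in M and none was called in MM. Pgm1, phosphoglucomutase, was at 0.33 (limma adjusted p = 0.003), with 0.24 in Cy5 and -0.11 in Cy3. Among the phosphorylase kinase subunits, Phkg2 was at 0.36 and Phkb at -0.36 (limma adjusted p = 0.00436 and 0.0031), with Cy3 differences of -0.45 and 0.13. Pygl, the liver glycogen phosphorylase, was at -0.08 without a call. Of 5 genes for fructose and glucose entry, the fructokinase Khk was lower in M at -0.45 (limma adjusted p = 0.0171; Cy5 -0.18, Cy3 0.26) and the fructose transporter Slc2a5 higher at 0.50 (limma adjusted p = 0.0228; Cy5 0.20, Cy3 -0.40). Tkfc, which phosphorylates glyceraldehyde from fructose, was lower in MM at -0.41 (limma adjusted p = 0.038), with -0.41 in Cy5 and -0.20 in Cy3, but was at 0.10 in M (limma adjusted p = 0.634). The hepatic glucose transporter Slc2a2 was at -0.06 in M and 0.04 in MM without a call. Slc2a1, another glucose transporter, was at 0.15 and 0.11 in the ratio without a call. Like Pkm it was called lower in Cy5 alone, at -0.30 in M and in MM (limma adjusted p = 0.0214 and 0.0185), with Cy3 at -0.51 and -0.48.

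Of 9 genes for the entry of pyruvate into mitochondria, Pdhb, a subunit of pyruvate dehydrogenase, was higher by 0.45 in M and by 0.41 in MM (limma adjusted p = 0.000263 and 0.000698), with Cy3 at -0.49 and -0.57 and Cy5 at -0.03 and -0.14. Pdk2, a kinase that switches pyruvate dehydrogenase off, was lower in M at -0.31 (limma adjusted p = 0.0106), with -0.29 in Cy5 (limma adjusted p = 0.0739) and 0.04 in Cy3. Pdk2 thus shared with Pklr a reference signal that differed little, but its liver channel did not pass the test. Of 7 pentose phosphate genes, H6pd was higher in M at 0.42 (limma adjusted p = 0.0237), with Cy3 at -0.25. None of 3 genes from the list around the control of fructose bisphosphate was called.

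Of 19 regulators, 1 was higher and 4 were lower in M, and 1 was lower in MM. Irs2, which carries the insulin signal, was at -0.51, Foxa2, a hepatocyte transcription factor, at -0.68, and Creb1, which binds cAMP response elements, at -0.53 (limma adjusted p = 0.00499, 0.0138 and 0.0169). Their Cy5 differences were -0.20, -0.25 and -0.23, and their Cy3 differences 0.27, 0.44 and 0.28. Sik1, a kinase that restrains CREB coactivators, was at -0.55 in M and -0.52 in MM (limma adjusted p = 0.013 and 0.0191), with -0.03 in Cy5 and a Cy3 difference of 0.54 and 0.52. Mlx was higher in M at 0.32 (limma adjusted p = 0.00638), with 0.20 in Cy5 and -0.14 in Cy3. Its partner Mlxipl, the gene of ChREBP, was at 0.03 in M and 0.23 in MM without a call. Hnf4a was tested and not called.

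The genes most like an enzyme across the 16 arrays, after group means were removed, were listed for 3 members as a description. For Pklr they were Cyp2d5 (Pearson r = 0.877), Wdr73 (0.874) and Ndufa6 (0.859). For Pck1 they were C8h11orf54 (0.829), Prpf40b (0.823) and Wdr91 (0.815). For Gapdh they were Ccl5 (0.881), Ass1 (0.863) and Cd320 (0.857). All points share the array, its row and its reference RNA. The search covered the tested genes with a symbol and no missing value, and the highest values among so many are large by selection. No other enzyme of the 8 was among them.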

How the data were processed

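Liver RNA pools of 16 arrays in 4 groups of 4 were compared. Per the file headers, the authors used Agilent Feature Extraction 11.0.1.1. Median spot and background intensities of both dyes were read from the deposited scanner files. The deposited log10 ratio is that software's own, background-subtracted and dye-normalized, per the file headers. The authors' deposited series table gives log2 ratios with medians of -0.0487 to -0.0371 per array, which correlated with the computed ratios at r = 0.996 to 0.998. Its normalization is not given in the sources used here.

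Each array had 62976 spots, 4259 of them controls. Median signals were corrected by normexp with an offset of 50, outlier spots were left out, and ratios were normalized within arrays by loess with control spots at weight 0. For single channels, corrected log2 signals were quantile-normalized between arrays. Probes with a liver signal well above background on 3 or more of the 4 arrays of any group were kept (13262 of 30367 probes). The brightest probe stood for a gene, named through RefSeq accessions of GRCr8: 12072 were tested, 7895 with a symbol. Between 46.2% and 53.9% of spots were well above background in Cy5, and no spot was saturated. Precision is limited by the number of arrays.

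The limma fit (version 3.58.1, R 4.3.3) had 1 mean for each group over 16 arrays, two-sided, with 12 residual and 3.95 prior degrees of freedom. Benjamini-Hochberg adjustment ran over all genes. The fit was tested on simulated data. Pair correlations used 100000 permutations within groups. The members and gene lists were chosen with earlier results of these data known. Named genes are all 8 members and up to 4 called genes per list and comparison by p. Creb1 and the genes of the lists named without a call were singled out after their values were seen. Some genes are counted in their lists, but their own values are not reported here. Alternatives were other background and normalization settings, single channels, array rows, filters, probe averaging and leaving out arrays. The other groups and the adult age were not analysed here.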

Additional observations from a re-analysis of the deposited data

Results flagged for a closer look

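In 32 groups of 4 arrays (8 enzymes in 4 groups), the gap of the most extreme array to its nearest neighbour was set against the whole range of the group. The ratio of gap to range passed the critical value of 0.829 in 4 groups, and chance passes about 1 in 20 groups. Fbp1 on M array 6 had a log2 ratio of 8.14, below 8.28 to 8.29 on the other M arrays (gap over range 0.963), although the whole group spans a narrow range. Fbp1 on CC array 1 was at 7.10, against 8.58 to 8.68 on the other CC arrays (0.942), with a high Cy3 level on that array. Pck1 on M array 6 was at 2.84, against 3.98 to 4.10 on the other M arrays (0.902). Gapdh on CC array 2 was at -0.42, against -0.29 to -0.27 on the other CC arrays (0.843), where skeletal muscle and exocrine pancreas markers were also high. The part of those markers in the Gapdh value was not tested.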

How the results depend on the processing

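Between M and C, 2 enzymes were called. With a normexp offset of 16 there was 1, with the log2 ratios of the authors' deposited table there was 1, and within array row 1 and within array row 2 there were 0 each. Leaving out 1 array at a time gave 1 to 2. Pklr kept its call and direction in all of these except within the rows, and the call of Pfkl was lost in each of them that gave fewer than 2, among them without C array 9, 10 or 11 or M array 6 or 7. A fit to only the M and C arrays also gave 2, but lost Pfkl (adjusted p = 0.0551) and gained Fbp1. Without CC array 1 in the fit, chosen after seeing the data, there were 3. Between MM and CC the main count was 0. It was 3 without background correction (Pklr, Pfkl and Gapdh), 1 in Cy5 alone (Pfkl), 2 within row 2 (Pklr and G6pc1), although Pklr was at -0.10 within row 1 and -0.08 with the scanner software's ratio, and 1 without CC arrays 1 and 2 (Fbp1). Leaving out 1 array at a time gave 0 to 1, with calls of Fbp1 without CC array 1, Pfkl without CC array 2 and Pklr without MM array 1. In Cy5 alone Pfkl turned to 0.44 between M and C and 0.56 between MM and CC. Fbp1 between MM and CC ran from -0.29 to 0.24 when 1 array was left out, and was -0.31 without CC arrays 1 and 2. The same numbers are used for MM and CC arrays, and their deviations correlated at 0.34, 0.06, 0.19 and 0.11. Equal numbers also lie in the same array row, and not every array correlated best with its own number, so the numbers were not taken as pairs. A fit with the replicate block called 0 enzymes and 2000 genes in all, against 2419. Over all genes, the calls between M and C and between MM and CC were 2459 and 2419, but 273 and 316 in Cy5 alone, 4024 and 3957 with the scanner software's ratio, 837 and 591 within row 1, 705 and 1210 within row 2 and, between MM and CC, 1547 with only those arrays and 1465 without CC arrays 1 and 2. Over 8 enzymes and all comparisons, 785 of the alternative values kept direction and side of the threshold, 9 gained a call, 12 lost one, 4 turned direction with a call on either side and 134 turned sign with no call on either side, 12 of them between M and C and 18 between MM and CC. Among these were Pck1 in Cy5 alone in both comparisons, Pck1 between M and C within row 1 and G6pc1 between MM and CC within row 1. The causes were not tested. No dye swap was made, and litter was not modelled.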
